A study of Mus musculus with 26 samples.

Results

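The Kruppel-like factor genes Klf2, Klf3, Klf4, Klf5, Klf9 and Klf13 were followed across 3 mouse pluripotent cell states. They were taken by name, as 6 of the 15646 genes with RNA values, and their promoters lie on 6 of the 19022 baited HindIII fragments that occur in the contact lists. RNA levels came from RNA-seq and promoter contacts from promoter capture Hi-C (PCHi-C), which enriches a Hi-C library for restriction fragments that carry promoters. Wild-type (WT) ESCs were the E14Tg2a line and Nanog-/- ESCs the RCNβH-B(t) line derived from it, which is a single line, and both were grown on gelatin in serum with LIF. EpiSCs were embryo-derived 129S2 cells grown on fibronectin in N2B27 with Activin A and bFGF. Strain, medium and matrix therefore differ between EpiSCs and the ESCs together with the pluripotent state, and their parts cannot be told apart. The strain field of the labels gives C57BL/6 for every sample, which goes against the strains named in the culture description. The RNA labels name 3 WT ESC, 4 EpiSC and 3 Nanog-/- ESC samples, and the PCHi-C labels name 5, 2 and 5 sequencing lanes.

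The deposited RNA table gives 1 median RPKM (reads scaled by transcript length and by the number of mapped reads) per state, and the contact tables give 1 list per state. No spread between samples can be had from either, so no difference below was tested, and a gene is described as past 2-fold or within it. EpiSC values were divided by 1.89, the median EpiSC to WT ESC ratio over 9077 genes, and ratios were taken on the log2(RPKM + 1) scale. In the lists each contact has a read count and a CHiCAGO score, which weighs the reads against those that the distance and the fragments would give. Only contacts with a score of 5 or more are listed, so a contact missing from a list may have fallen short of that score. The lists held 100492 different fragment pairs for WT ESCs, 87369 for EpiSCs and 74931 for Nanog-/- ESCs, with 2177383, 1651422 and 1440356 reads on them, which is not the depth of the libraries.

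Kruppel-like factors are transcription factors that bind GC-rich and CACCC sequences through zinc fingers at their C terminus, and their N-terminal parts recruit activators or repressors. In mouse ESCs, KLF2, KLF4 and KLF5 are known as redundant supporters of self-renewal that share many targets with NANOG, and Klf4 and Klf5 respond to LIF through STAT3. KLF3 represses transcription through the corepressor CtBP, and KLF9 and KLF13 belong to the group that binds the corepressor SIN3A.

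The state labels were first set against marker genes. Pou5f1, the gene for OCT4, was present in all 3 states, at 1159 RPKM for WT ESCs, 754 for EpiSCs and 1129 for Nanog-/- ESCs. The other 2 genes of this list, taken as shared by both pluripotent states, were past 2-fold lower in EpiSCs, Sox2 with a log2 ratio of -2.43 and Utf1 with -1.67, and all 3 were within 2-fold in Nanog-/- ESCs. Nanog, the targeted gene, stood at 418 RPKM for WT ESCs, 191 for EpiSCs and 22.3 for Nanog-/- ESCs, so it was strongly reduced but not at 0 in the mutant line. All 4 naive markers measured were lower in EpiSCs, where Esrrb, Tbx3 and Dppa3 were each under 1 RPKM. Of the 4 primed markers, Fgf5 (log2 ratio 4.35) was past 2-fold higher in EpiSCs, while Pou3f1 (0.87), Otx2 (0.07) and Dnmt3b (-0.55) were within 2-fold. All 5 mesendoderm markers (median log2 ratio 4.74) and 3 of 4 fibroblast markers (median 2.13) were past 2-fold higher in EpiSCs, and all 4 primitive endoderm markers (median 3.13) were past 2-fold higher in Nanog-/- ESCs. In EpiSCs 2 of these primitive endoderm markers, Gata6 (1.79) and Dab2 (1.53), were past 2-fold higher too. Among the other markers, Sox17 (2.49) and Postn (1.06) were past 2-fold higher in Nanog-/- ESCs. Nanog, Dppa3 (-2.37), Fgf5 (-1.44), Cer1 (-1.27) and T (-1.03) were past 2-fold lower there, and the rest were within 2-fold. Of all genes, 15.2% were past 2-fold higher and 14.1% lower in EpiSCs, and 2.46% and 1.98% in Nanog-/- ESCs. The part of mesendoderm, primitive endoderm or fibroblast cells in the values below was not tested. In bulk RNA fewer cells of a type and less RNA per cell cannot be told apart.

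Promoter sequences are shown for Klf2 and Klf4, whose RNA fell furthest in EpiSCs, and for Klf13, the member that was higher there. They are RefSeq sequences of GRCm38, from 250 to 31 bases before the transcription start, written 5′ to 3′ along the gene, and capitals mark GGGCGG or its reverse complement CCGCCC, the core of the GC box that SP and KLF proteins bind. Klf2 has its window at chr8:72318812-72319031 on the plus strand, Klf4 at chr4:55532506-55532725 on the minus strand and Klf13 at chr7:63938946-63939165 on the minus strand.
Klf2 promoter: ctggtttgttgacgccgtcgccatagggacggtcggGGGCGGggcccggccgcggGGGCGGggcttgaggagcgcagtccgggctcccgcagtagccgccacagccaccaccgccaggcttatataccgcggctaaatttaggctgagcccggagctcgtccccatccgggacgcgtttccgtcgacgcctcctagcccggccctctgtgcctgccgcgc
Klf4 promoter: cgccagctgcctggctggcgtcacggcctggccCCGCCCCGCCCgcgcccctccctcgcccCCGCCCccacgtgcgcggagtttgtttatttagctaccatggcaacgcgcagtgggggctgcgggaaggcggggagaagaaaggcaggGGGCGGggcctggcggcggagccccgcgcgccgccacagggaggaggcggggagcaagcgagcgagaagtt
Klf13 promoter: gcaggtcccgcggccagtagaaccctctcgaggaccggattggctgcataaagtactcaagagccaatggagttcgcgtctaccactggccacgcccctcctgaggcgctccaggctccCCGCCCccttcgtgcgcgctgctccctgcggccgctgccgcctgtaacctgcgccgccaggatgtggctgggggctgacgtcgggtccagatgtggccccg

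The Klf4 window held 4 such matches, the Klf2 window 2 and the Klf13 window 1, counting overlapping matches on both strands. Of 32851 RefSeq promoters, 28.5% held at least 1 match in this window of 220 bases and 2.64% held 4 or more. The CACCC motif, searched on both strands as CACCC or GGGTG, occurred in 47.8% of all promoters but not in these 3 windows. Of the other members, Klf3 had 6 GC box matches and 5 CACCC matches in its window, of which 1 pair overlapped, and Klf9 had 0 and 1. The Klf5 promoter was not analysed here. A match is a string of letters and not a measured binding site.

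Of the 5 contact fragments of under 300 bases, which place a contact narrowly, 1 is given for each gene that has one: the Klf5 fragment listed in WT ESCs and EpiSCs (162 bases, chr14:99630880-99631041), the shortest of the 4 Klf4 fragments listed in EpiSCs (275 bases, chr4:56685315-56685589) and the Klf3 fragment with the highest score among those listed in EpiSCs alone (191 bases, chr5:64513608-64513798). They are GRCm38 plus-strand sequences that overlap no protein-coding gene, and capitals mark the bases of the HindIII site AAGCTT that the cut leaves at the start of the fragment.
Klf5 contact fragment: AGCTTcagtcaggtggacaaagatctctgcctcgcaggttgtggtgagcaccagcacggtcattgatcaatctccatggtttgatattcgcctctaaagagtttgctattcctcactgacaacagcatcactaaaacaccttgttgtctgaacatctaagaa
Klf4 contact fragment: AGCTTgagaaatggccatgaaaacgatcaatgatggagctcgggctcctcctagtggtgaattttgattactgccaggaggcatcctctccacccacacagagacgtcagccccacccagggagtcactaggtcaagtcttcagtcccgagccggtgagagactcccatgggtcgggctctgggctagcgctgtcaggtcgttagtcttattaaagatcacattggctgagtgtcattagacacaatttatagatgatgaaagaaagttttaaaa
Klf3 contact fragment: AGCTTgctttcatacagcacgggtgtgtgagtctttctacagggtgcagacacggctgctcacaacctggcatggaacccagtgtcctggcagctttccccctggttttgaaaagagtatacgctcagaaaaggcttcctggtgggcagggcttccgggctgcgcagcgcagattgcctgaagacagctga

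In EpiSCs, 5 of the 6 genes were past 2-fold lower than in WT ESCs and 1 was higher. Klf2 fell furthest, from the highest level of the 6 to the lowest, and Klf13 rose from the lowest level to the highest. Among the 10728 genes at 1 RPKM or more in at least 1 state, 14.1% were past 2-fold lower and 15.2% higher. The members' share on the lower side was well above that of all genes. They were chosen with earlier results of these data known, so this share is a description and not a test. Together the 6 genes summed to 653 RPKM for WT ESCs, 116 for EpiSCs and 575 for Nanog-/- ESCs, and the members' median log2 ratio was -2.17 in EpiSCs against 0.0012 over all genes.

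Klf2 RNA stood at 302 RPKM for WT ESCs, 2.95 for EpiSCs (5.56 as deposited) and 244 for Nanog-/- ESCs. Its log2 ratio of -6.26 in EpiSCs was among the 43 lowest of all genes (0.401%). Its ratio of -0.30 in Nanog-/- ESCs was within 2-fold. Klf2 made up 46.1% of the 6 genes' summed RPKM in WT ESCs and 42.4% in Nanog-/- ESCs, but 2.54% in EpiSCs.

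Klf4, a target of LIF signalling and a reprogramming factor, stood at 93.0 RPKM for WT ESCs, 5.76 for EpiSCs (10.9 as deposited) and 31.7 for Nanog-/- ESCs. It was the only member past 2-fold in both comparisons, with log2 ratios of -3.80 and -1.52. In Nanog-/- ESCs 1.98% of all genes were past 2-fold lower and 2.46% higher, and Klf4 was 1 of the 65 lowest (0.606%). Of the 6 members, 1 was lower and 0 were higher there.

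Klf5, which is also induced by LIF, stood at 88.7 RPKM for WT ESCs, 16.9 for EpiSCs (31.9 as deposited) and 118 for Nanog-/- ESCs, with log2 ratios of -2.32 and 0.40. Klf5 thus moved in the other direction from Klf4 in Nanog-/- ESCs, although its own change was within 2-fold. In WT ESCs Klf9, Klf4 and Klf5 were close to each other at 99.1, 93.0 and 88.7 RPKM, and with 1 value per state their order cannot be called.

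Among the members that bind corepressors, Klf3 stood at 53.7 RPKM for WT ESCs, 25.3 for EpiSCs (47.7 as deposited) and 53.5 for Nanog-/- ESCs. Its log2 ratio of -1.06 in EpiSCs was just past 2-fold and went within it, to -0.17, with the EpiSC values as deposited. Klf9, which is induced by steroid and thyroid hormones in many tissues, stood at 99.1, 23.6 (44.5 as deposited) and 105 RPKM, with log2 ratios of -2.03 and 0.08. Klf13 stood at 17.5 RPKM for WT ESCs, 41.5 for EpiSCs (78.3 as deposited) and 23.0 for Nanog-/- ESCs, with log2 ratios of 1.20 and 0.38. From the highest value to the lowest, WT ESCs had Klf2, then Klf9, Klf4 and Klf5 close together, then Klf3 and Klf13, and EpiSCs had Klf13, then Klf3 and Klf9 close together (25.3 and 23.6 RPKM), then Klf5, Klf4 and Klf2. Nanog-/- ESCs had Klf2, then Klf5 and Klf9 close together (118 and 105 RPKM), then Klf3, Klf4 and Klf13. With no spread between samples, no neighbours in these orders can be said to differ.

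**Figure D1:**
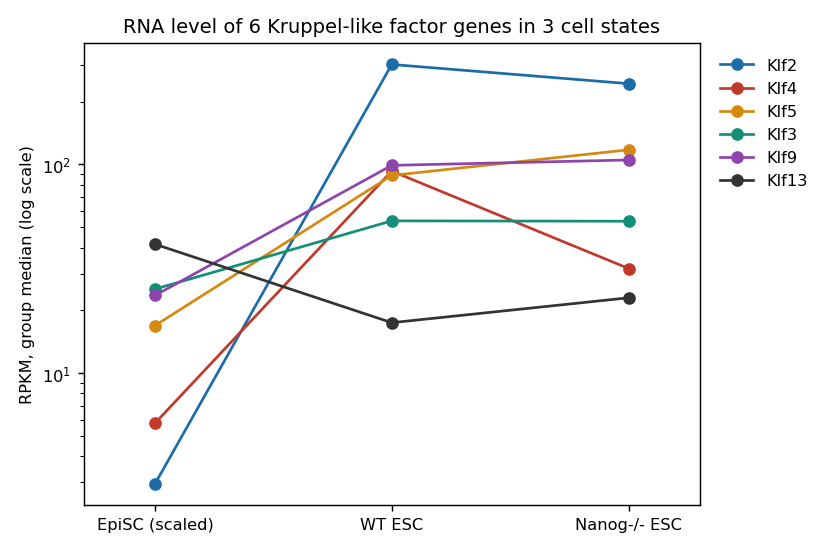
Median RPKM on a log axis (vertical) of each gene in the 3 states (horizontal), 1 line per gene, EpiSC values scaled, with no error bars because the table holds 1 value per state. Klf2 drops from 302 RPKM in WT ESCs to 2.95 in EpiSCs, Klf13 alone is higher in EpiSCs, and Klf4 alone is past 2-fold lower in Nanog-/- ESCs.

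**Figure D2:**
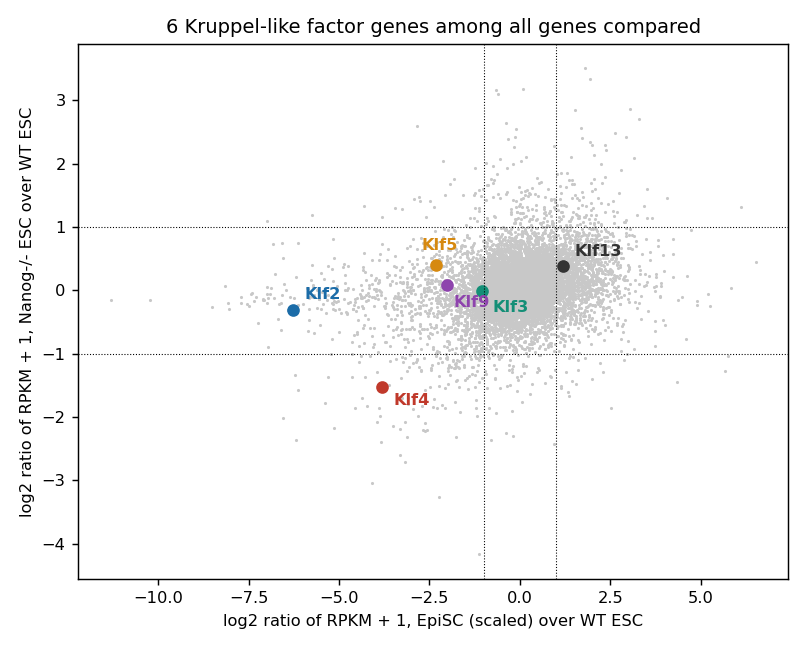
Log2 ratio in EpiSCs (horizontal) against log2 ratio in Nanog-/- ESCs (vertical), both over the same WT ESC values, for 10728 genes (grey) and the 6 members (coloured), with dotted lines at 2-fold. Klf4 is the member in the lower left corner at -3.80 and -1.52, and Klf2 lies far left at -6.26.

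Of the 11 other Klf genes considered, 8 reached 1 RPKM in some state. In EpiSCs 1 of these 8 was past 2-fold lower (14.1% of all genes) and 0 were higher (15.2%). That gene was Klf8, at 10.7, 3.37 and 5.53 RPKM in WT ESCs, EpiSCs and Nanog-/- ESCs. Klf16 was next lowest, with a log2 ratio of -0.89 in EpiSCs, and Klf7 (0.11) was the highest. In Nanog-/- ESCs all 8 stayed within 2-fold, from Klf8 (-0.84) and Klf15 (-0.41) to Klf7 (0.43) and Klf6 (0.75). Of the related Sp genes, 6 reached 1 RPKM and all stayed within 2-fold in both comparisons. Sp2 (-0.98) and Sp9 (-0.67) were the lowest in EpiSCs and Sp4 (0.14) and Sp5 (0.48) the highest, and in Nanog-/- ESCs Sp5 (-0.77) and Sp4 (-0.29) were the lowest and Sp9 (0.05) the highest.

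Of 12 measured genes of the LIF pathway and of naive factors that work with the KLFs, 9 were past 2-fold lower in EpiSCs, against 14.1% of all genes, and 0 were higher, with a median log2 ratio of -2.19. This list too was chosen with earlier results of these data known. Esrrb, an orphan nuclear receptor of naive ESCs, was lowest at -7.23, and Nr0b1, listed at 0 in EpiSCs, stood at 126 RPKM in WT ESCs. Lifr, the LIF receptor, had a ratio of -1.51 and Socs3, the feedback inhibitor of the pathway, -2.55, whereas Jak1 (0.47), Il6st (-0.88) and Sall4 (-0.82) stayed within 2-fold. In Nanog-/- ESCs 3 of the 12 were lower, against 1.98% of all genes, and 1 was higher, against 2.46%. The lower ones were Nanog itself (-4.17), Dppa3 (-2.37) and Nr5a2 (-1.37), and the higher one was the homeobox gene Gbx2 (1.75). Tbx3 was the next highest at 0.65.

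Of 8 measured genes for KLF cofactors, 1 was past 2-fold lower in EpiSCs (14.1% of all genes) and 0 were higher (15.2%). In Nanog-/- ESCs all 8 stayed within 2-fold. The gene was Hdac1, the histone deacetylase, at 158 RPKM in WT ESCs and 19.6 in EpiSCs. Sin3a, the partner of KLF9 and KLF13, had a log2 ratio of -0.79 in EpiSCs and -0.28 in Nanog-/- ESCs, and Ctbp1, the partner of KLF3, had 0.95 and 0.27. Hdac2 (0.44) was the next highest in EpiSCs, and Ep300 (0.32) the highest in Nanog-/- ESCs.

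The genes whose levels were closest to a member over the 3 states were found by the Euclidean distance of log2(RPKM + 1), with 3 states as the only points. Closest to Klf2 were Gm11808, Ahcy and Rps28. Ahcy, an enzyme of methionine metabolism, stood at 214, 3.08 and 226 RPKM in WT ESCs, EpiSCs and Nanog-/- ESCs, and Rps28, a ribosomal protein gene that every cell uses, at 249, 4.17 and 206. That a ribosomal protein gene had almost the pattern of Klf2 is a feature of the deposited EpiSC column. The part of this feature in the Klf2 value, and in other low EpiSC values such as those of Klf9 and Hdac1, was not tested. Klf4 was most like Alpl, Tubb3 and Sgk1, of which Alpl, the alkaline phosphatase of ESC colonies, stood at 69.6, 5.19 and 41.4 RPKM. Klf5 was most like Tet1 (100.4, 18.0 and 119 RPKM), Pdzd4 and Socs3. Klf3 was closest to Zfp7, Tada2a and Nup160, Klf9 to Bloc1s2, Tufm and Psma3, and Klf13 to Nucb1, Acta2 and Nfkb2.

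The 6 baited fragments took part in 36 listed contacts for WT ESCs, 59 for EpiSCs and 32 for Nanog-/- ESCs, which made 87 different fragment pairs. All of them lay on the chromosome of their bait, and all 186 ends of the baited and contacted fragments carried a HindIII site in GRCm38. In EpiSCs 5 of the 6 baits had more contacts than in WT ESCs, which held for 33.5% of all baits, and the sixth, Klf2, had fewer, as did 52.8% of all. In Nanog-/- ESCs 3 baits had more (21.6% of all baits), 2 had fewer (60.7%) and 1 had as many. These directions rest partly on contacts of few reads. With contacts of at least 10 reads alone, 2 baits had more in EpiSCs than in WT ESCs (22.7% of all baits), Klf3 with 14 and 18 and Klf13 with 2 and 9 in WT ESCs and EpiSCs, and 2 had fewer (47.5%), Klf2 with 10 and 6 and Klf4 with 1 and 0. Klf9 then had 2 in each and Klf5 had 0 in each. In Nanog-/- ESCs 1 bait, Klf13, then had more (16.2%) and 4 had fewer (51.2%), so Klf2 and Klf4 turned direction. Among contacts with a score of 7 or more, 5 baits again had more in EpiSCs (26.1%) and 1 had fewer (38.3%), while in Nanog-/- ESCs 2 had more (20.5%) and 2 had fewer (38.7%). Of the genes with more contacts in EpiSCs, 4 (Klf4, Klf5, Klf3 and Klf9) were among those with lower RNA there, but of these Klf3 alone had more when at least 10 reads were required.

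Of the members' WT ESC contacts, 18 of 36 (50%) were also listed in EpiSCs, against 39.6% of all WT ESC pairs, and 18 of 36 (50%) in Nanog-/- ESCs, against 41.8%. As a share of the other list, these pairs were 30.5% of the members' EpiSC contacts, against 45.5% of all EpiSC pairs, and 56.3% of their Nanog-/- ESC contacts, against 56%. All 3 lists shared 8 of the 87 pairs, or 9.20%, against 14.4% of the pairs of any list. They belonged to Klf3 (4), Klf2 (2), Klf4 (1) and Klf9 (1). Of the 59 EpiSC pairs 37 were in no other list, as were 8 of the 36 WT ESC pairs and 10 of the 32 Nanog-/- ESC pairs.

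**Figure D3:**
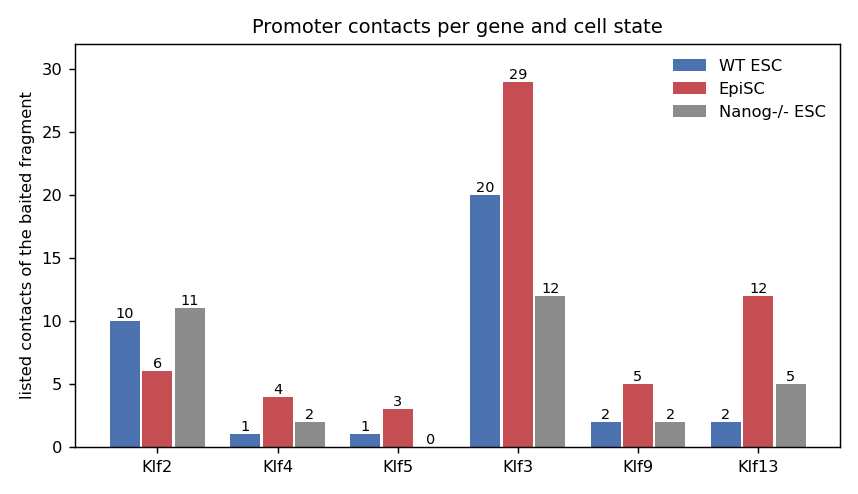
Number of listed contacts (vertical) of each gene's baited fragment in WT ESCs, EpiSCs and Nanog-/- ESCs (bars, labelled with the count), 1 combined list per state. Klf3 has the most in each state (20, 29 and 12), Klf13 goes from 2 in WT ESCs to 12 in EpiSCs, and Klf5 has 0 in Nanog-/- ESCs.

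The Klf2 bait (chr8:72317665-72322039) covers the whole gene, and it had 10 contacts for WT ESCs, 6 for EpiSCs and 11 for Nanog-/- ESCs, all within 77.6 kb. Of its 10 WT ESC contacts, 7 (70%) were listed in Nanog-/- ESCs and 2 (20%) in EpiSCs. The fragment 5.74 kb downstream (chr8:72323569-72327605), in intergenic sequence, was in all 3 lists with 84 reads for WT ESCs, 87 for EpiSCs and 43 for Nanog-/- ESCs and scores of 9.17, 7.33 and 6.49. The other contact in all 3 lists, 54.0 kb downstream (chr8:72373441-72374313), overlaps an exon of Eps15l1 and had 13, 15 and 9 reads.

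The highest Klf2 score in WT ESCs, 10.99 with 25 reads, was with the baited fragment of Gm10282, 14.2 kb upstream (chr8:72303392-72307982), which was in no other list. Gm10282 RNA stood at 40.4 RPKM for WT ESCs, 5.28 for EpiSCs and 37.5 for Nanog-/- ESCs. The contact was listed neither in EpiSCs, where Gm10282 was past 2-fold lower, nor in Nanog-/- ESCs, where its level was within 2-fold. A link between this contact and the level was not tested. The next WT ESC scores were 9.17, of the contact 5.74 kb downstream described above, and 8.04 with 17 reads. The latter was with an intron of Eps15l1 44.8 kb downstream, a contact listed in Nanog-/- ESCs too, with 9 reads.

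In EpiSCs the highest Klf2 score outside the contacts in all 3 lists was 7.20 with 13 reads, 71.4 kb upstream in an intron of Ap1m1. The highest Nanog-/- ESC scores were 8.55 with 11 reads, in intergenic sequence 49.2 kb upstream, then 7.78 with 11 reads and 7.43 with 12 reads in introns of Eps15l1 43.1 and 33.5 kb downstream. Several of these fragments were also contacted by baits of other genes. In EpiSCs the Ap1m1 fragment was listed with the baits of Cherp, Cib3, Fcho1, Insl3 and Slc35e1 as well, of which Insl3 alone was past 2-fold higher in EpiSCs (5.47 RPKM for WT ESCs, 19.1 for EpiSCs and 2.26 for Nanog-/- ESCs).

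The Klf4 bait (chr4:55531813-55535766) had 1 contact for WT ESCs, 4 for EpiSCs and 2 for Nanog-/- ESCs. The WT ESC contact lay 1144 kb upstream of the gene (chr4:56673645-56681565), on a fragment baited for SNORA17.260, a small nucleolar RNA copy, in sequence with no protein-coding gene. It was in all 3 lists, with 14 reads for WT ESCs, 7 for EpiSCs and 5 for Nanog-/- ESCs and scores of 19.05, 9.63 and 5.23. Contacts at 1000 kb or more were 0.692% of the WT ESC pairs within a chromosome, 0.920% in EpiSCs and 0.186% in Nanog-/- ESCs, and of the 690 such WT ESC pairs 58 (8.41%) were in all 3 lists.

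All 4 Klf4 contacts in EpiSCs lay in this distant stretch, between 1144 and 1167 kb from the bait. The highest score, 10.55 with 7 reads, was with the fragment of 275 bases printed above, 1152 kb away, and the other fragments had 6 reads at 1155 kb and 5 at 1167 kb. The second contact in Nanog-/- ESCs lay 59.2 kb downstream of the gene (chr4:55467699-55481403), on a fragment baited for SNORA17.249, with 8 reads and a score of 5.67. No contact of the Klf4 bait within 1000 kb was listed in WT ESCs or EpiSCs. The paper, however, reports a significant contact of the Klf4 promoter with a super-enhancer, a large domain of active enhancer marks, in ESCs only. Its rules also took in some contacts that scored below the limit of the lists used here. The part of these rules in the difference was not tested. Reads were between 5 and 14 for each of these contacts, so a few reads decide whether such a contact is listed.

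The Klf5 bait (chr14:99295420-99299475) had 1 contact for WT ESCs, 3 for EpiSCs and 0 for Nanog-/- ESCs. The fragment of 162 bases printed above, 334 kb downstream in intergenic sequence, had 6 reads and a score of 6.41 in WT ESCs and 5 reads and a score of 5.24 in EpiSCs. In EpiSCs the same fragment was listed with the bait of Pibf1, whose RNA hardly differed (11.6 RPKM in WT ESCs and 11.6 in EpiSCs). The other EpiSC contacts lay at 319 kb with 7 reads and at 413 kb with 5 reads. No Klf5 contact had 10 reads or more.

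The Klf3 bait (chr5:64800404-64805809) was the most connected of the 6. It had 20 contacts in WT ESCs, more than 92.8% of all baits, 29 in EpiSCs, more than 98.0%, and 12 in Nanog-/- ESCs, more than 88.0%. Every contact in every list lay upstream of the gene in intergenic sequence, between 62.5 and 437 kb away. Among baits with 10 or more contacts, those with all contacts on 1 side were 14.6% for WT ESCs, 21.9% for EpiSCs and 9.37% for Nanog-/- ESCs. The gain of 9 contacts in EpiSCs was reached by 2.49% of all baits, and the loss of 8 in Nanog-/- ESCs by 6.91%. With touching partner fragments joined, Klf3 had 12 contacts for WT ESCs, 19 for EpiSCs and 11 for Nanog-/- ESCs. Under this rule the loss in Nanog-/- ESCs was small, while a gain in EpiSCs remained. With at least 10 reads Klf3 had 14 contacts for WT ESCs, 18 for EpiSCs and 6 for Nanog-/- ESCs. At a score of 7 or more it had 10, 14 and 5, so the loss remained under both of these rules. Under them 51.2% and 38.7% of all baits had fewer contacts in Nanog-/- ESCs than in WT ESCs.

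The contacts sat in groups rather than evenly. Between 200 and 300 kb from the bait there were 4 contacts with 41 reads for WT ESCs, 11 with 139 reads for EpiSCs and 2 with 13 reads for Nanog-/- ESCs. Nearer the gene, between 50 and 100 kb, the order was different, with 4 contacts and 81 reads for WT ESCs, 1 and 15 for EpiSCs and 2 and 24 for Nanog-/- ESCs. From 400 kb outward there were 5, 7 and 2 contacts. In the same order of states, there were 2, 7 and 4 between 100 and 200 kb and 5, 3 and 2 between 300 and 400 kb.

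The neighbouring fragments 296 kb (chr5:64506207-64508156) and 294 kb (chr5:64508157-64510066) from Klf3 carried the strongest EpiSC signal. The first had 9 reads for WT ESCs, 24 for EpiSCs and 7 for Nanog-/- ESCs, with scores of 6.01, 25.22 and 6.74. The second had 10, 22 and 6 reads, with scores of 7.13, 21.94 and 5.53. Both were in all 3 lists and were highest in EpiSCs. After division by the median ratio of all shared pairs, the EpiSC to WT ESC read ratio was 3.20 for the first (95% interval 1.44 to 7.82) and 2.64 for the second (1.20 to 6.24). Without this division the ratios were 2.67 (1.20 to 6.52) and 2.20 (0.99969 to 5.20), so the second interval then spans 1. These are Clopper-Pearson intervals that cover counting error only and not the spread between replicates. Of all 39765 pairs in both lists, 3.30% had an interval above 1 and 2.62% one below 1.

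A few fragments away, the fragment of 191 bases printed above was listed in EpiSCs alone with 15 reads and a score of 14.01, while its neighbours on either side were listed in WT ESCs and EpiSCs with 11 and 11 reads and with 11 and 10 reads. The other contacts in all 3 lists lay 421 kb away, with 8, 16 and 5 reads and an EpiSC score of 18.63, and 159 kb away, on a fragment baited for AC122043.1, with 18, 14 and 10 reads. The highest WT ESC score of Klf3, 10.79 with 13 reads, was 314 kb away and in no other list, followed by 10.34 with 11 reads at 425 kb and 10.23 with 24 reads at 97.7 kb, both also listed in EpiSCs. The highest Nanog-/- ESC scores were 9.70 with 12 reads at 137 kb, 7.85 at 159 kb and 7.16 with 11 reads at 102 kb. The fragment 431 kb away was listed in WT ESCs with the bait of Tlr6 too, a Toll-like receptor gene that stood at 0.0468, 0.218 and 0.221 RPKM in the 3 states.

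**Figure D4:**
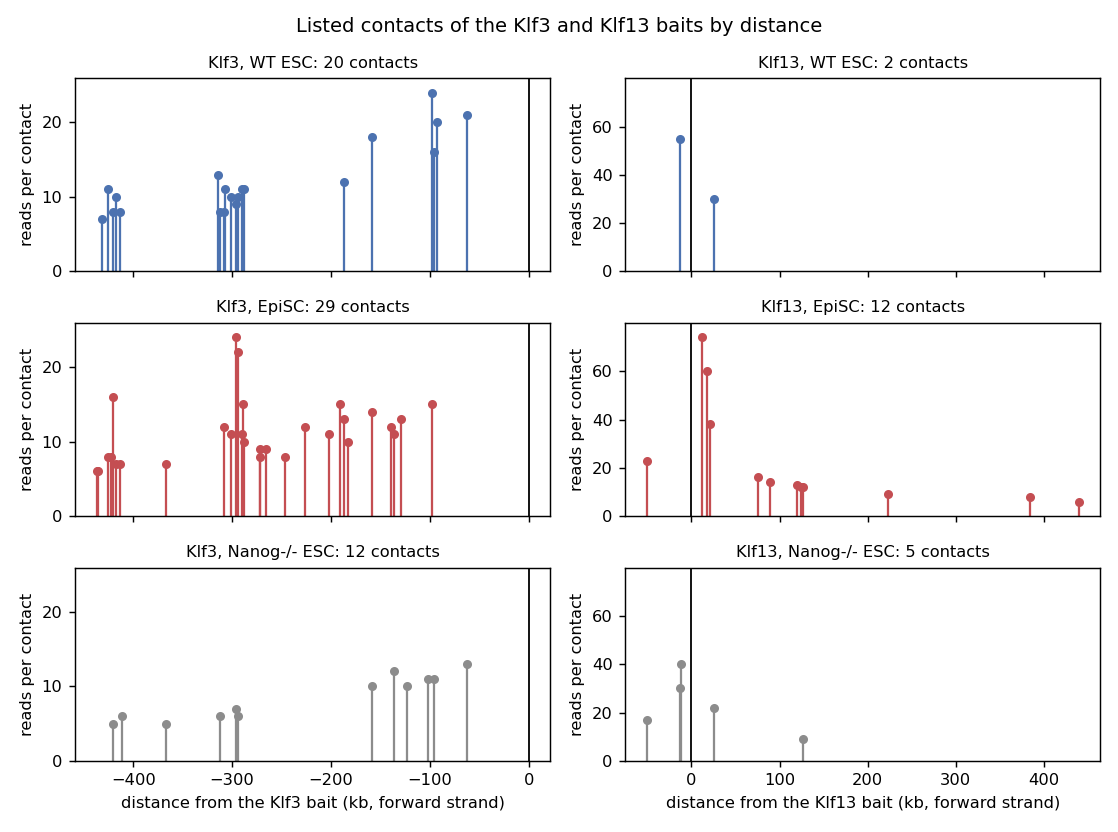
Reads per listed contact (vertical) by signed distance from the baited fragment in kb along the forward strand (horizontal; vertical line at the bait), for Klf3 (left) and Klf13 (right) in each state. Klf3 contacts lie on the upstream side in all 3 states, with the highest EpiSC pair at 24 and 22 reads near 296 and 294 kb, and Klf13 contacts reach 440 kb in EpiSCs but 25.6 kb in WT ESCs.

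The Klf9 bait (chr19:23133779-23145323) had 2 contacts for WT ESCs, 5 for EpiSCs and 2 for Nanog-/- ESCs. The contact in all 3 lists lay in an intron of Klf9 itself, 9.85 kb from the bait (chr19:23148747-23150063), on a fragment baited for Mir1192. It had 83 reads for WT ESCs, 96 for EpiSCs and 57 for Nanog-/- ESCs and scores of 12.62, 20.78 and 16.90. Its scaled read ratio was 1.39 in EpiSCs (95% interval 1.02 to 1.88; 1.16 with 0.853 to 1.57 without scaling) and 1.11 in Nanog-/- ESCs (0.776 to 1.57). Klf9 RNA was 4.20 times lower in EpiSCs in plain RPKM, and a link between this contact and the level was not tested.

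The other Klf9 contacts differed between the lists. In WT ESCs there was 1 at 44.7 kb upstream with 14 reads and a score of 7, in Nanog-/- ESCs 1 at 63.1 kb upstream with 9 reads and a score of 7.54, and in EpiSCs 4 between 94.9 and 223 kb upstream with 7 to 10 reads each. The strongest of these in EpiSCs, at 127 kb, had 10 reads and a score of 10.98, and the farthest, at 223 kb, lay in an intron of the ion channel gene Trpm3 with 7 reads and a score of 9.67.

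The Klf13 bait (chr7:63930364-63940989) had 2 contacts for WT ESCs, 12 for EpiSCs and 5 for Nanog-/- ESCs. A gain of 10 or more in EpiSCs was reached by 1.98% of all baits. Neither WT ESC contact was listed in EpiSCs, but both were in Nanog-/- ESCs. They were an intron of Klf13, 13.4 kb from the bait, with 55 reads in WT ESCs and 30 in Nanog-/- ESCs, and a fragment baited for U3.24, 25.6 kb upstream of the gene, with 30 and 22 reads.

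In EpiSCs 11 of the 12 Klf13 contacts lay upstream of the gene. The 3 nearest, at 12.0, 17.3 and 21.6 kb, had 74, 60 and 38 reads and were listed in EpiSCs alone, and the one at 17.3 kb had a score of 8.17. The farther ones thinned out with distance, from 16 reads at 76.1 kb to 6 reads at 440 kb. The highest score, 8.27, came with 8 reads in an exon of Mtmr10, 384 kb away, and the farthest contact, with a score of 5.30, joined Klf13 to the baited fragment of Fan1, a DNA repair nuclease gene. Fan1 stood at 3.38 RPKM for WT ESCs, 4.17 for EpiSCs and 3.12 for Nanog-/- ESCs, and Mtmr10 at 3.41, 8.14 and 4.87. The contact in an intron of Trpm1, 223 kb away with 9 reads, was listed with the baits of Fan1 and Mtmr10 too.

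Nanog-/- ESCs shared 2 Klf13 contacts with EpiSCs that WT ESCs lacked, at 50.5 kb downstream of the bait (23 reads in EpiSCs and 17 in Nanog-/- ESCs) and at 127 kb upstream (12 and 9 reads). The highest Klf13 score in Nanog-/- ESCs, 11.89, was with the U3.24 fragment, and 1 contact, in an exon of Klf13 11.5 kb from the bait, was in no other list (40 reads). Many EpiSC contacts of Klf13 had scores just past the limit, and at a score of 7 or more the numbers were 0 for WT ESCs, 3 for EpiSCs and 2 for Nanog-/- ESCs.

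Over all pairs listed in both states, the members' reads in EpiSCs were 1.30 times those in WT ESCs after scaling (95% interval 1.12 to 1.51, 18 pairs with 350 reads in WT ESCs and 380 in EpiSCs). The same ratio in Nanog-/- ESCs was 1.00 (0.866 to 1.16, 18 pairs with 490 and 305 reads). These intervals on summed reads cover counting error only, and contacts are not replicates of a state. Of the reads in WT ESCs and EpiSCs, the Klf2 contact at 5.74 kb gave 84 and 87 and the Klf9 contact at 9.85 kb gave 83 and 96. The EpiSC ratio was 1.36 for the 13 Klf3 pairs (1.09 to 1.71) and 1.26 for the 2 Klf2 pairs (0.946 to 1.68). Without scaling the EpiSC ratios were 1.09 over all 6 genes (0.936 to 1.26) and 1.13 for Klf3 (0.905 to 1.42), and both intervals then span 1. In EpiSCs 3 of the 18 single intervals lay above 1 (2 of Klf3 and 1 of Klf9), against 3.30% of all shared pairs, and 0 below, against 2.62%. Without scaling 1 of the 18, the Klf3 contact at 296 kb, stayed above 1. In Nanog-/- ESCs 0 of 18 lay away from 1, against 0.750% of all shared pairs above and 0.622% below.

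**Figure D5:**
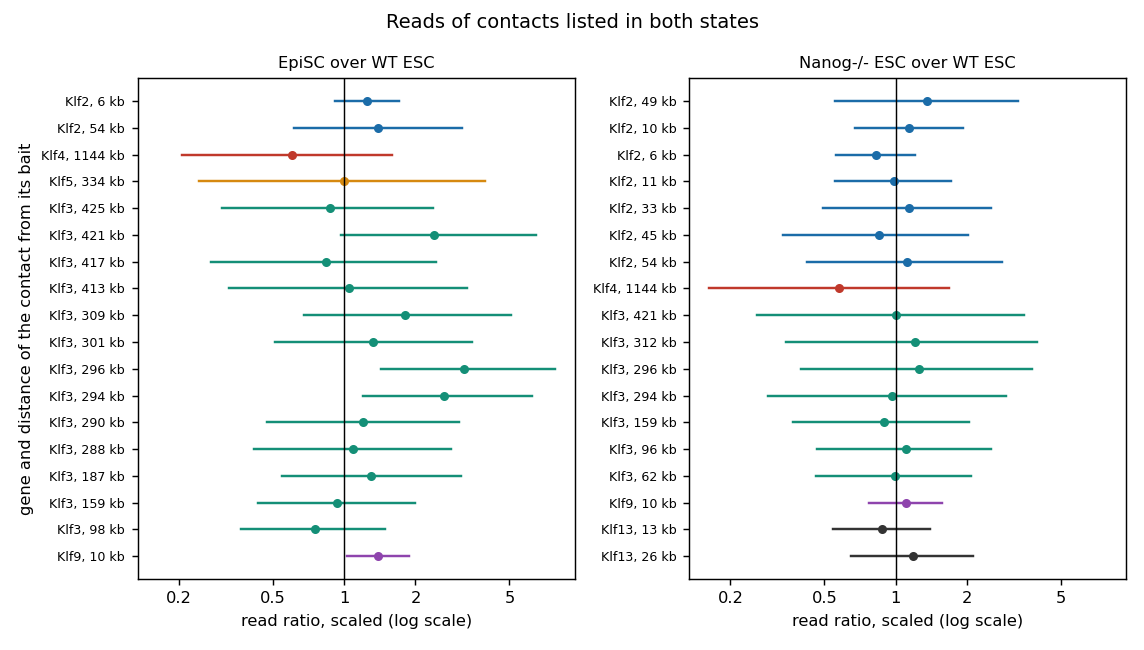
Scaled read ratio (horizontal, log axis; point) with its 95% counting interval (line) for each contact listed in WT ESCs and in EpiSCs (left) or Nanog-/- ESCs (right), labelled by gene and distance from the bait. The Klf3 contacts at 296 and 294 kb stand at 3.20 and 2.64 in EpiSCs, and every scaled interval in Nanog-/- ESCs spans 1.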

How the data were processed

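The RNA table that the authors deposited gives 1 median RPKM per gene and state, after Trim Galore, TopHat and DESeq2 (versions not given in the sources used here). The column named BT12 was taken as Nanog-/- ESCs because the other columns name the other states. For PCHi-C, reads were mapped with Bowtie 1.1.0 in HiCUP (GRCm38), replicates were combined and contacts called with CHiCAGO. The deposited lists give a read count and a CHiCAGO score per contact. Columns of the authors' own fold changes and p-values were not used, nor were the ChIP-seq data.

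A contact that appears from either end was used once, with its higher score. Distances run between fragment midpoints, and annotation is GENCODE M21, where intergenic means outside protein-coding genes. Genes at 1 RPKM or more in a state were compared, with a pseudocount of 1 RPKM. The computations (Python 3.11.15, pandas 2.3.3, scipy 1.17.1) were tested on simulated data. The 6 members and the gene lists were chosen with earlier results of these data known. Named genes were the members, the 2 furthest in each direction of each list past or nearest 2-fold, the 3 genes closest to each member and partner genes; named contacts were the 3 with the highest score per member and state and those in all 3 lists. Alternatives were another pseudocount, EpiSC scaling, fold, score, read and neighbour rules.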

Additional observations from a re-analysis of the deposited data

How the results depend on the processing

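No paired analysis was possible because the RNA table and the contact lists hold 1 value per state, and no replicate could be left out. Of 42 alternative values of the members' RNA ratios, 40 kept their side of 2-fold and all kept their direction. The 2 others were Klf3 in EpiSCs, at -0.17 on the log2 scale with EpiSC values as deposited and -0.92 with a scale factor of 1.70 from the 5564 genes at 10 RPKM or more. EpiSC values as deposited moved the shares of all genes past 2-fold to 42.5% higher and 8.17% lower. At 4-fold, no member was higher in EpiSCs (0) or lower in Nanog-/- ESCs (0), and the shares of all genes were 4.06% higher and 5.70% lower in EpiSCs and 0.289% and 0.214% in Nanog-/- ESCs. At 2-fold, a pseudocount of 0.1 RPKM moved the Nanog-/- ESC shares from 2.46% higher and 1.98% lower to 5.57% and 3.70%. At a CHiCAGO score of 7 or more, the 6 members had 16 contacts for WT ESCs, 27 for EpiSCs and 13 for Nanog-/- ESCs. With at least 10 reads, EpiSCs had 35 and Nanog-/- ESCs 19, against 29 in WT ESCs, and Klf4 then turned direction in EpiSCs. At a WT ESC score of 7 or more the share of WT ESC contacts also in Nanog-/- ESCs was 37.5% for the members, below the 60.4% of all pairs, and in EpiSCs 62.5% against 57.8%. With a direct neighbour of the partner fragment counted too, the Nanog-/- ESC share was 72.2% for the members, above the 53.9% of all pairs. In EpiSCs these shares were 66.7% and 52.5%. Without scaling by the median of all shared pairs, the read ratio over the members' shared contacts was 1.09 in EpiSCs, with an interval that then spans 1, and 0.622 in Nanog-/- ESCs (0.644 for Klf3 and 0.687 for Klf9), where the list as a whole holds fewer reads. Contacts of 5 to 10 reads limit what can be said of Klf4 and Klf5.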
